A study of Mus musculus with 14 samples.

Results

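The liver X receptors and 8 of their lipid target genes were followed in macrophages sorted from the central nervous system during peak experimental autoimmune encephalomyelitis, which models multiple sclerosis in mice. The 10 genes were taken by symbol from the deposited table and were 10 of its 19940 genes. They are the receptor genes Nr1h2 (ENSMUSG00000060601, chromosome 7) and Nr1h3 (ENSMUSG00000002108, chromosome 2), the sterol exporter genes Abca1 (ENSMUSG00000015243, chromosome 4) and Abcg1 (ENSMUSG00000024030, chromosome 17), and the lipogenic regulator gene Srebf1 (ENSMUSG00000020538, chromosome 11). The desaturase genes Scd1 (ENSMUSG00000037071) and Scd2 (ENSMUSG00000025203), both on chromosome 19, Mylip (ENSMUSG00000038175, chromosome 13), Lpcat3 (ENSMUSG00000004270, chromosome 6) and Pltp (ENSMUSG00000017754, chromosome 2) complete the set. All 10 passed the filter on low values, a normalised count of at least 10 in at least 7 libraries.

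There were 14 Smart-seq2 libraries of sorted monocyte-derived macrophages, 7 of mCAT and 7 of wt cells. The mCAT cells came from CD45.2 donor marrow of the genotype CCR2creERT2/+ mcat lsl/wt, heterozygous for an inducible Cre at the Ccr2 locus and for a Cre-dependent mitochondrial catalase. The wt cells came from CD45.1 donor marrow. Both marrows had been given in equal numbers to the same lethally irradiated hosts, and all libraries carry the treatment label tamoxifen. Cre is driven from Ccr2, a gene of monocytes, so the marrow cells that recombine are those that transcribe it, and how many of the sorted mCAT cells had recombined was not analysed here. The labels of the wt donors name no Cre. CD45 allele, the Cre at Ccr2 and the catalase genotype therefore differ together, so their effects cannot be told apart. Neither the age of the animals nor the genotype of the hosts is given in the labels.

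The library codes fall into a C1 series of 8 libraries and a C2 series of 6, whose meaning the labels do not give. The C2 series holds mCAT 5 to 7 and wt 5 to 7, and the C1 series holds mCAT 1 to 4 and wt 1 to 4. The rest of the code, here the stem, joins 1 mCAT to 1 wt library in 6 cases, while mCAT 3 and wt 1 have no partner. By a rough estimate, the mCAT libraries held 27.6 to 47.0 M reads (M for mega) and the wt libraries 16.6 to 42.6 M, with the lowest depth in wt 7. On the first principal component, wt 1 stood apart from the other libraries. The 10 macrophage markers all passed the filter. Their summed normalised count, most of it Lyz2, was 860410 to 3539990 in mCAT and 1024020 to 4490040 in wt libraries. The donor marker separates marrow origin and not cell type, and the same libraries held 4785 to 16747 normalised counts of 8 microglia markers in mCAT and 3553 to 15720 in wt.

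Liver X receptors are nuclear receptors that bind DNA with a retinoid X receptor and are switched on by oxysterols and by desmosterol, products that build up when a cell holds too much cholesterol. Their targets export cholesterol, lower its uptake, and change the fatty acids of membrane lipids, while the opposing SREBP2 axis makes and imports cholesterol when it is scarce. In the demyelinating nervous system, macrophages take up cholesterol-rich myelin debris, and these receptors are known for their part in clearing its sterols.

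The receptor pair is known to bind a direct repeat of nuclear receptor sites with a 4-base spacer, called DR4, and windows of 250 bases before the gene start are shown for 3 genes. Pltp and Abca1 are the genes that passed by library code, and Srebf1 had the smallest unpaired p by genotype. The windows are RefSeq sequence on GRCm38.p6, on the gene's own strand, the minus strand for all 3. They run 5′ to 3′, with the DR4 match in capitals, and that of Pltp holds no match. The Pltp window is chr2:164857709-164857958. The Abca1 window is chr4:53159896-53160145 and the Srebf1 window, before the third of its listed starts, is chr11:60210472-60210721.
Pltp: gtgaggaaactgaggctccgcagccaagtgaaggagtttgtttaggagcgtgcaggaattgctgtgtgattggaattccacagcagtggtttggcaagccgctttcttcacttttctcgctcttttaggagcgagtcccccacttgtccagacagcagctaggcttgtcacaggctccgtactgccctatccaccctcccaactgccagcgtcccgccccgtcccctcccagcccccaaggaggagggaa
Abca1: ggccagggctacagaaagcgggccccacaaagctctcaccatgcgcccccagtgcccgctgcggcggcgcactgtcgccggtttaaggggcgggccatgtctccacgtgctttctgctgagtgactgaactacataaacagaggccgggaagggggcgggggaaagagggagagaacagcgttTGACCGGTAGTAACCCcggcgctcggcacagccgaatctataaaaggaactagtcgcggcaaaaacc
Srebf1: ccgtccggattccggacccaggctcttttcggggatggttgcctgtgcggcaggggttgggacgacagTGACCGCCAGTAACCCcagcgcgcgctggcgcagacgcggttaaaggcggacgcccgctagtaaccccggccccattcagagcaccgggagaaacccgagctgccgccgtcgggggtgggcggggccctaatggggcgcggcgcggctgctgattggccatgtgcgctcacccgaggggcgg

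The letters searched, on both strands, were NGGTNA, then 4 bases of any kind, then NGGTNA again, a pattern loosened after the Abca1 window had been seen. It was found in 204 of 32851 RefSeq promoter windows (0.621%). Of the 10 genes, 7 had a window, with 10 starts in all, and Abca1 and Srebf1 held the match. In Abca1 it covers bases -67 to -52 from the start and in Srebf1 bases -182 to -167, in both on the strand opposite to the gene. The single repeat unit AGGTCA, present in 14% of all windows, was in none of the 10. The E-box CACGTG, present in 6.02% of all windows and also a site of many other factors, was found in Abca1 alone, from base -147. These matches describe letters and not bound sites.

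Levels differed widely between the genes. Per kilobase of the longest coding transcript, Abcg1 was highest, at a median of 1574 normalised counts per kb over the 14 libraries (lowest 951.9, highest 2486). Next came Nr1h2 (median 1163 per kb) and Lpcat3 (1120 per kb), whose order was close to even, since Nr1h2 was the higher in 6 of 14 libraries. Pltp (877.1 per kb), Nr1h3 (674.7 per kb), Abca1 (386.7 per kb), Srebf1 (350.2 per kb) and Mylip (252.2 per kb) followed, and Abca1 exceeded Srebf1 in 8 of 14 libraries. Scd2 stood at 112.9 per kb and Scd1 at 3.60 per kb, and this last step of the order held in all 14 libraries.

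Scd1 and Scd2 encode stearoyl-CoA desaturases, which make monounsaturated fatty acids, and Scd2 was the form with the higher counts in these libraries. The libraries also held 8 oligodendrocyte markers, at summed counts of 2220 to 4454 in mCAT and 2102 to 7545 in wt. Which cells gave the Scd2 reads was not tested. Scd1 reached a normalised count of 10 in 12 of 14 libraries and Scd2 in all 14. Their transcripts are 94.7% identical over 624 bases, and Scd1 is 91.4% identical to Scd3 over 1053 bases, so the few reads given to Scd1 are uncertain. Scd1 had the lowest counts of the 10 genes in every library, so its values are the least precise.

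**Figure D1:**
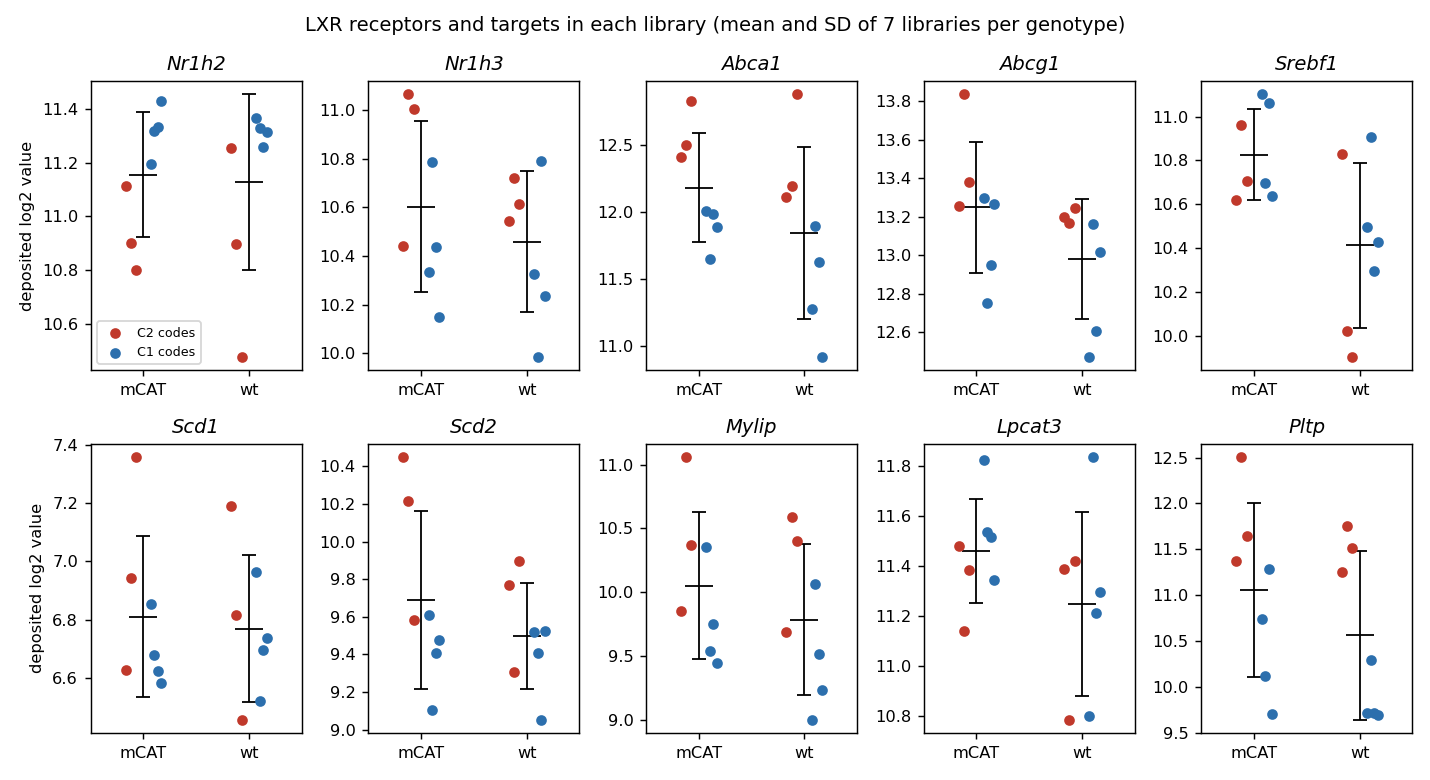
Deposited log2 value of the 10 genes in each library, mCAT left and wt right in each panel, with C2 libraries in red and C1 libraries in blue. Bars give the mean and SD of 7 libraries, and the genotypes overlapped for all 10 genes.

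Whether the receptors or their targets differed between mCAT and wt libraries was asked first. None of the 10 genes passed the test in limma, against 24 of 12096 genes tested (0.198%). All 10 had a log2 difference above 0, with a median of 0.24, whereas 49.7% of all tested genes lay above 0 with a median of 0. At an unadjusted p under 0.05 stood 1 of the 10 genes, Srebf1, against 5.37% of all genes. When mCAT libraries were compared with the wt library of the same stem, again none of the 10 passed, against 38 of 12096 genes (0.314%). All 10 were above 0 there too, with a median of 0.21, and 4 had an unadjusted p under 0.05 against 9.24% of all genes. The 10 genes were measured on the same 14 libraries, so their shared direction is a description.

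The receptor genes differed little. Nr1h2, which encodes LXR-beta, had 1660 to 2636 normalised counts in mCAT (median 2219) and 1301 to 2518 in wt macrophages (median 2328). Nr1h3, which encodes LXR-alpha, had 1014 to 2019 in mCAT (median 1268) and 892 to 1649 in wt (median 1370). The genotypes overlapped over most of their range for both genes, and of the 10 genes none had groups without overlap, as had 29 of all genes tested (0.24%). The log2 difference was 0.03 for Nr1h2 (95% interval -0.28 to 0.34) and 0.14 for Nr1h3 (-0.20 to 0.48), with limma adjusted p-values of 0.984 and 0.910.

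Srebf1, which encodes SREBP-1, the activator of fatty acid synthesis genes, had the smallest p of the 10 genes without pairing. It had 1450 to 2075 normalised counts in mCAT (median 1550) and 837 to 1795 in wt libraries (median 1258). The mCAT libraries began well above the lowest wt libraries, 837 in wt 7 and 919 in wt 6, and overlapped the upper ones. Its log2 difference was 0.41 ± 0.15 (SE), with a limma adjusted p of 0.878 over all genes (0.0157 before adjustment). Within stems, mCAT was higher in 5 of 6 pairs (14.7% of all genes were so in at least 5), with differences from -0.21 to 0.94, and the paired fit gave 0.39 ± 0.13 (SE, adjusted p = 0.440). The exception was stem C2_1, with 1450 in mCAT 5 and 1697 in wt 5. A difference was seen in both code series, at 0.51 within C2 and 0.34 within C1.

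The exporters came next. Abca1, which passes cholesterol to lipid-poor apolipoprotein, had 3097 to 7123 normalised counts in mCAT (median 3996) and 1817 to 7398 in wt libraries (median 3695). Abcg1, which passes cholesterol to larger lipoprotein particles, had 6782 to 14500 in mCAT (median 9736) and 5551 to 9576 in wt (median 9035). Both genotypes held high and low libraries of each gene, and the highest Abca1 library of all was a wt one.

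The errors of the exporters were smaller in the paired fit, which leaves out wt 1 and mCAT 3. With the code series as a term and no pairing, the SE was 0.16 for Abca1 and 0.13 for Abcg1. Abcg1 was higher in mCAT in 6 of 6 pairs, by 0.05 to 0.67, as were 331 of all tested genes (2.74%). Its paired log2 difference was 0.23 ± 0.09 (SE, limma adjusted p = 0.479), against 0.27 ± 0.17 without pairing (adjusted p = 0.878). Abca1 was higher in mCAT in 5 of 6 pairs, from -0.05 to 0.97, with 0.28 ± 0.12 in the paired fit (adjusted p = 0.507). Without pairing it stood at 0.34 ± 0.25 (adjusted p = 0.878), at 0.18 without wt 4 and at 0.51 without wt 7. The unpaired Abcg1 difference was 0.17 without mCAT 6. Of the 6 Abca1 differences, the highest by far was that of stem C1_5, with 3674 in mCAT 4 and 1817 in wt 4.

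Pltp, which encodes the transfer protein that moves phospholipid between lipoproteins, varied most between libraries. It had 711 to 5703 normalised counts in mCAT (median 2380) and 704 to 3338 in wt libraries (median 1135). The lowest libraries of both genotypes were close together, and the highest was mCAT 6. It was higher in mCAT in 6 of 6 pairs, by 0.01 to 0.75, with a paired log2 difference of 0.31 ± 0.10 (SE, limma adjusted p = 0.440) and an unpaired one of 0.49 ± 0.45 (adjusted p = 0.892). The unpaired difference ran from 0.25 without mCAT 6 to 0.72 without mCAT 4. Pltp overlaps Ctsa on the opposite strand over 495 exon bases, and Smart-seq2 keeps no strand, so reads there cannot be told apart. Ctsa averaged 65520 ± 15181 normalised counts in mCAT and 56808 ± 18193 in wt (SD, n = 7 each).

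**Figure D2:**
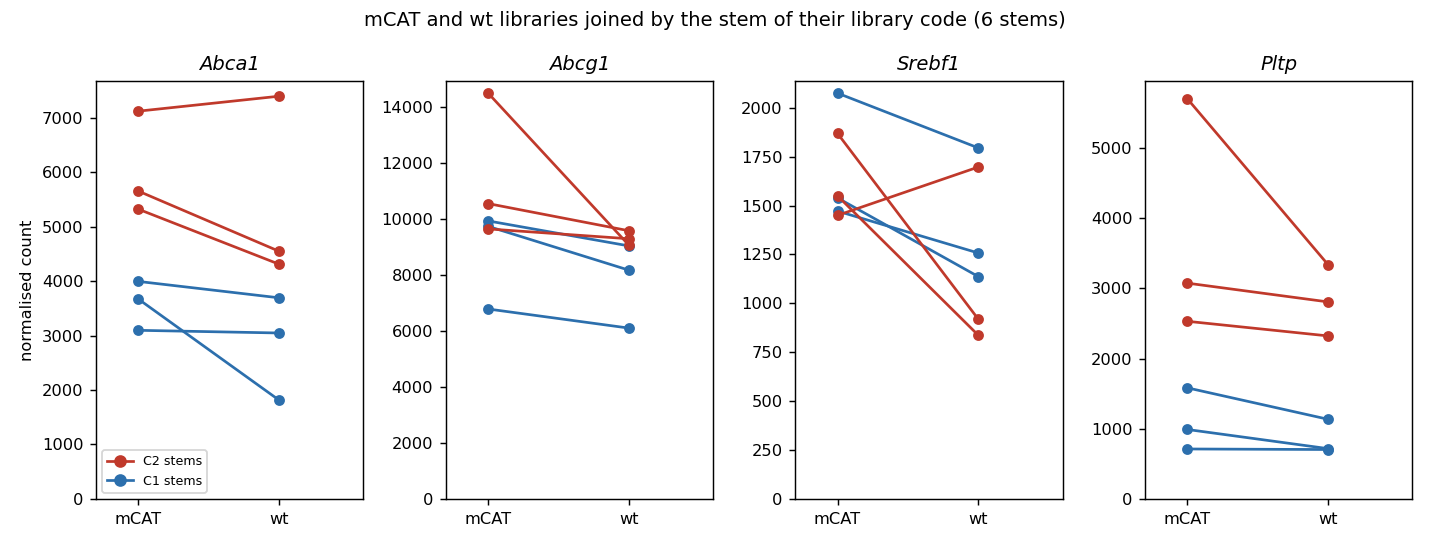
Normalised count of Abca1, Abcg1, Srebf1 and Pltp in the mCAT (left) and wt (right) libraries of each stem, with C2 stems in red and C1 stems in blue. The mCAT library was the higher in 5, 6, 5 and 6 of 6 pairs.

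None of the remaining targets passed in either fit. Mylip encodes an E3 ligase that limits lipoprotein uptake, and its counts were 578 to 2012 in mCAT (median 804) and 396 to 1417 in wt (median 707). Lpcat3, which places polyunsaturated fatty acids into phospholipids, had 2135 to 3496 in mCAT (median 2732) and 1643 to 3531 in wt (median 2387). Scd2 had 432 to 1278 in mCAT (median 646) and 413 to 832 in wt (median 614). All 3 overlapped between genotypes, with paired log2 differences of 0.19 ± 0.10, 0.13 ± 0.09 and 0.25 ± 0.14 (SE) and limma adjusted p-values of 0.578, 0.643 and 0.610. The unpaired difference was 0.27 for Mylip, against 0.10 without mCAT 6 and 0.14 without wt 1, and 0.19 for Scd2, against 0.07 without mCAT 5, 0.11 without mCAT 6, 0.12 without wt 3 and 0.29 without mCAT 2. Lpcat3 shares 334 exon bases with Emg1 on the opposite strand, and Emg1 averaged 2207 ± 226 in mCAT and 2526 ± 255 in wt (SD, n = 7 each).

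The log2 difference of Scd1 was 0.16 within C2 and -0.04 within C1, while the other 9 genes had rounded values of 0 or more within both series. It had 11.7 to 63.1 normalised counts in mCAT (median 15.7) and 7.31 to 48.1 in wt libraries (median 18.3). mCAT was the higher in 3 of 6 pairs.

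**Figure D3:**
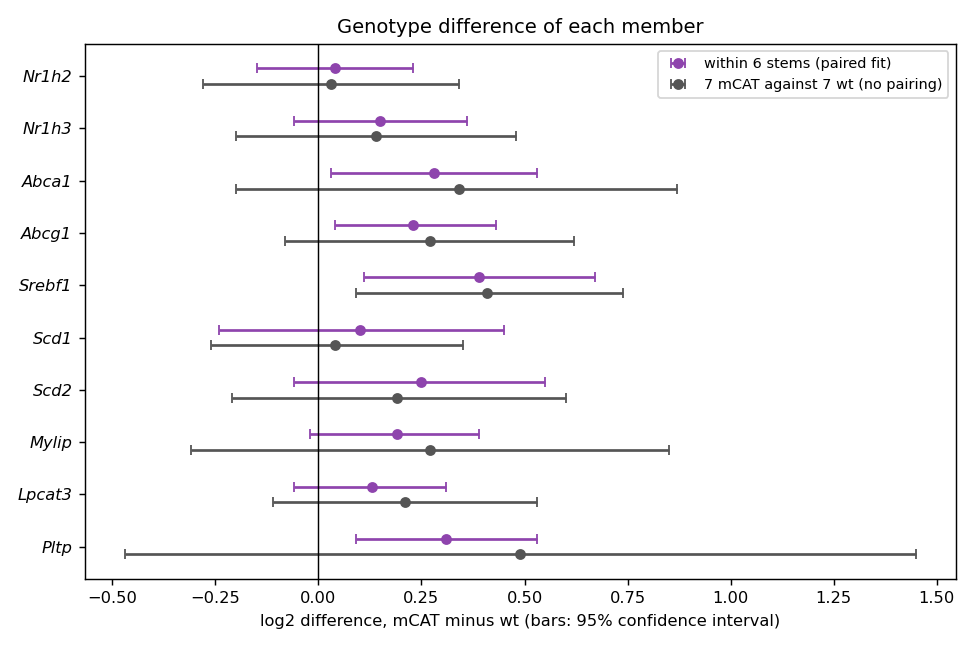
Log2 difference, mCAT minus wt, of each gene with its 95% confidence interval, from the paired fit over 6 stems (purple) and the fit of 7 mCAT against 7 wt libraries (grey). All points lie at or above 0.03, and no gene passed an adjusted p of 0.05 in either fit.

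Among 61 other genes of the pathway, 59 were tested and none passed between genotypes, in either fit. Of these, 32 (54.2%) lay above 0 without pairing, against 49.7% of all genes, with a median of 0.03. Without pairing 1 of 59 had an unadjusted p under 0.05, and with pairing 6 of 59, against 5.37% and 9.24% of all genes. Soat1, the enzyme that esterifies cholesterol for storage, averaged 15391 ± 2128 normalised counts in mCAT and 13030 ± 2701 in wt (SD), with a limma p of 0.113 before adjustment. Its lowest library was wt 1, at 7576, and its log2 difference was 0.26 without pairing and 0.14 with pairing. Insig2, which holds SREBP in the endoplasmic reticulum, averaged 833 ± 135 in mCAT and 1019 ± 154 in wt, with a log2 difference of -0.26 (adjusted p = 0.878).

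Genes of sterol ligand synthesis showed no call. Ch25h, which makes 25-hydroxycholesterol, averaged 381 ± 286 in mCAT and 376 ± 287 in wt. Dhcr7 averaged 617 in mCAT and 472 in wt, and Sc5d 1604 in mCAT and 1432 in wt. Both encode late enzymes of cholesterol synthesis, and their unpaired limma p-values before adjustment were 0.226 and 0.316.

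The coregulators Ncoa2 (324 in mCAT, 408 in wt) and Nrip1 (525 in mCAT, 653 in wt) had log2 differences of -0.20 and -0.21, with unadjusted limma p-values of 0.303 and 0.335. Both were highest in wt 1, at 779 and 1416 normalised counts. The paired fit, which leaves out wt 1 and mCAT 3, gave -0.10 and -0.05. Acaca, the first enzyme of fatty acid synthesis, averaged 187 in mCAT and 244 in wt (log2 -0.27). Fads2, a fatty acid desaturase, averaged 41.5 in mCAT and 16.7 in wt (log2 0.34). The lipoprotein receptor gene Lrp8 averaged 109 in mCAT and 143 in wt (log2 -0.20) and was also highest in wt 1, at 282. The paired differences were -0.05 for Lrp8, -0.18 for Acaca and 0.25 for Fads2. These 5 genes are named because they had the smallest p in their lists, and none passed.

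Markers of several cell types leaned with genotype. The T cell markers had 1 of 6 tested above 0, with none called. Of the 6, 5 had an unadjusted p under 0.05 without pairing and 4 within stems, against 5.37% and 9.24% of all genes. Their sum was 132 to 289 normalised counts in mCAT (median 199) and 216 to 759 in wt libraries (median 388). Within stems, 1 of 7 tested microglia markers was above 0 (median log2 difference -0.26), with 4 of 7 at an unadjusted p under 0.05 and none called. All 5 B cell markers lay below 0 within stems, with a median of -0.42, 2 of 5 at an unadjusted p under 0.05 and none called. Of the 10 macrophage markers, 7 lay above 0 within stems, with a median of 0.11, and 6 had an unadjusted p under 0.05. Of these only Ccr2, which carries the Cre, was called, falling in mCAT (log2 -0.80, limma adjusted p = 0.00563, against 0.878 without pairing). The part of these markers in the differences above was not tested. In bulk samples, fewer cells of a type and less RNA per cell cannot be told apart.

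The larger differences lay between the library code series. With genotype as a covariate and the stem as a random block, 328 of 12096 genes passed in C2 against C1 (2.71%), of which 194 were higher in C2 (1.6%) and 134 lower (1.11%). Of the 10 genes, Pltp and Abca1 rose in C2 and none fell. At an unadjusted p under 0.05 stood 7 of the 10, against 17.1% of all genes. The median log2 difference of the 10 was 0.39, with 7 above 0, against -0.01 and 49.0% for all genes tested. The C2 libraries hold 3 stems and the C1 libraries 5, and what else sets the series apart cannot be told apart from the code.

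Pltp had 2531, 5703 and 3074 normalised counts in the mCAT and 2322, 3338 and 2807 in the wt libraries of C2. In C1 it had 1583, 989, 2380 and 711 in the mCAT and 720, 1135, 716 and 704 in the wt libraries. All C2 libraries were above all of C1 apart from 1 crossing, mCAT 3 of C1 above wt 5 of C2. The C2 mean of 3296 ± 1234 (SD, n = 6) was 2.95 times the C1 mean of 1117 ± 596 (SD, n = 8), and the log2 difference was 1.48 ± 0.25 (SE, limma adjusted p = 0.00319). The opposite-strand neighbour Ctsa averaged 75767 ± 10239 in C2 and 50212 ± 11155 in C1. The Pltp call was lost without the libraries of stem C2_2 (log2 1.26, adjusted p = 0.0534) and in mCAT libraries alone (1.38, adjusted p = 0.121).

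Abca1 had 5324, 5657 and 7123 normalised counts in the mCAT and 4313, 4551 and 7398 in the wt libraries of C2. In C1 it had 3996, 3097, 3940 and 3674 in the mCAT and 2362, 3695, 3048 and 1817 in the wt libraries. Every C2 library was above every C1 library, which held for no other of the 10 genes and for 169 of all tested genes in this direction (1.4%). The log2 difference was 0.83 ± 0.19 (SE, limma adjusted p = 0.0246), from means of 5727 ± 1288 in C2 (SD, n = 6) and 3204 ± 784 in C1 (SD, n = 8). The call was lost in mCAT libraries alone (0.69, adjusted p = 0.0673), in wt libraries alone (0.96, adjusted p = 0.272), and without stem C1_3, C2_2 or C2_4 (adjusted p = 0.0679, 0.117 and 0.229).

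**Figure D4:**
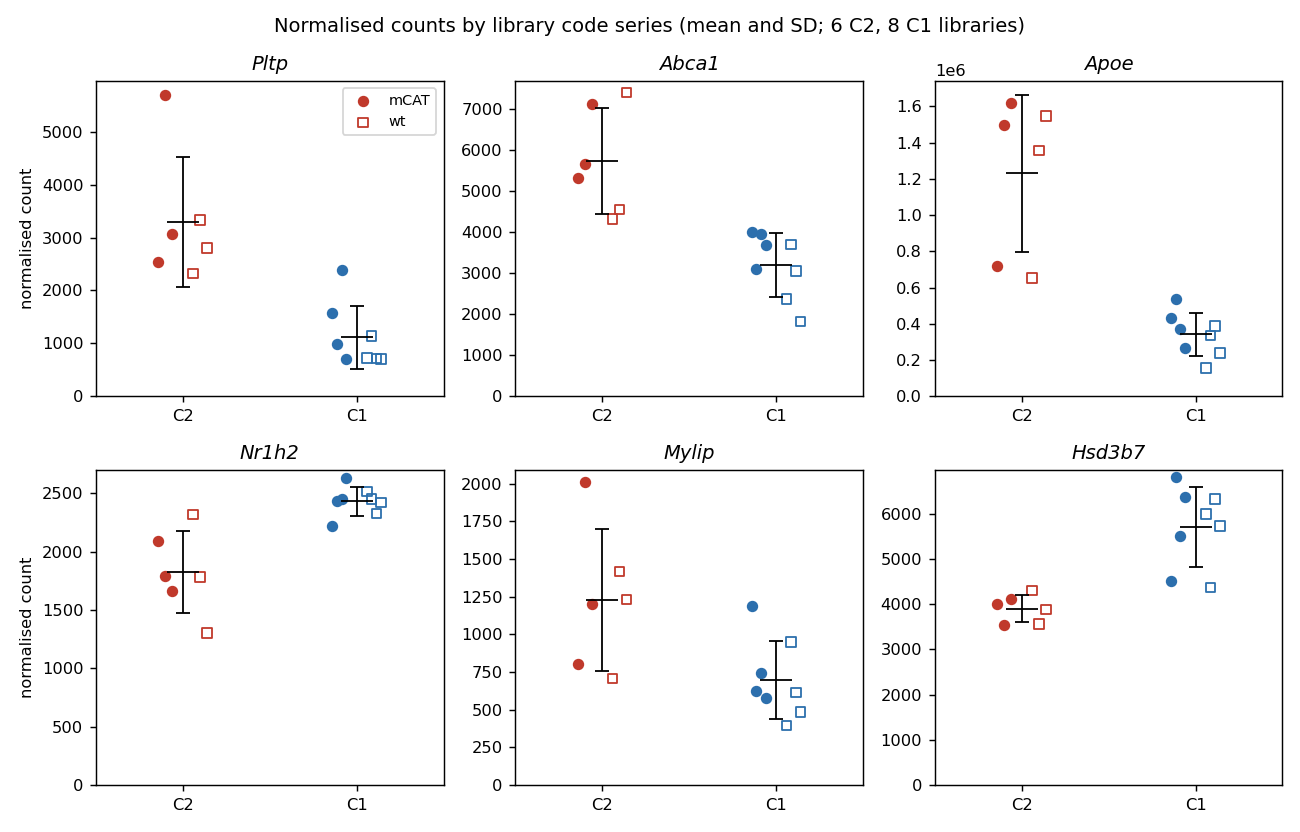
Normalised counts of Pltp, Abca1, Apoe, Nr1h2, Mylip and Hsd3b7 in C2 (left) and C1 (right) libraries, with mCAT libraries as filled circles and wt libraries as open squares, and bars for the mean and SD. Abca1 and Apoe of C2 lie wholly above C1, while Nr1h2 and Hsd3b7 have the lower mean in C2.

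The receptors leaned in opposite directions. Nr1h2 had 1301 to 2319 normalised counts in C2 (median 1785) and 2219 to 2636 in C1 (median 2441), with a log2 difference of -0.42 ± 0.13 (SE, limma adjusted p = 0.105). Nr1h3 had 1268 to 2019 in C2 (median 1503) and 892 to 1649 in C1 (median 1165), with 0.35 ± 0.16 (adjusted p = 0.279). The C2 libraries of Nr1h2 met those of C1 at the top of their range, wt 5 with mCAT 1. Neither receptor passed here, although Nr1h2 passed without the block (-0.41, adjusted p = 0.0331), without wt 5 (-0.47, 0.0387) and without stem C2_1 (-0.55, 0.0153).

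Mylip came nearest to the threshold of the others, with 707 to 2012 normalised counts in C2 (median 1216) and 396 to 1185 in C1 (median 620), a log2 difference of 0.74 ± 0.23 (SE, limma adjusted p = 0.0946). It passed without stem C1_2 (0.92, 0.0302) and without stem C2_1 (1.02, 0.0104). Abcg1 had 9070 to 14500 in C2 (median 9609) and 5551 to 9928 in C1 (median 7978), a log2 difference of 0.43 ± 0.16 (adjusted p = 0.162). Scd2 had 515 to 1278 in C2 (median 792) and 413 to 660 in C1 (median 575), with 0.48 ± 0.21 (adjusted p = 0.241). All 3 genes overlapped between the series.

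Srebf1, Lpcat3 and Scd1 did not follow the exporters. Srebf1 had 837 to 1869 normalised counts in C2 (median 1500) and 1137 to 2075 in C1 (median 1506), with a log2 difference of -0.20 (95% interval -0.61 to 0.20). Lpcat3 had 1643 to 2732 in C2 (median 2555) and 1659 to 3531 in C1 (median 2641), with -0.13 (-0.48 to 0.23). Scd1 had 7.31 to 63.1 in C2 (median 26.1) and 9.40 to 31.2 in C1 (median 16.1), with 0.18 (-0.25 to 0.61). The series overlapped for all 3, with the highest Scd1 libraries in C2 and the highest Srebf1 and Lpcat3 libraries in C1.

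The other pathway genes gave 4 calls by code series, 3 higher and 1 lower in C2, of 59 tested, where 1.6% of all genes were called higher and 1.11% lower. All 3 higher ones are apolipoprotein genes of a single cluster and known macrophage targets of the receptors. Apoe, whose product accepts exported cholesterol, averaged 1231930 ± 433054 in C2 and 341062 ± 120010 in C1 (SD, n = 6 and 8), with a log2 difference of 1.89 ± 0.28 (SE, limma adjusted p = 0.001075). Apoc1 averaged 157 ± 92.8 in C2 and 36.7 ± 10.2 in C1 (0.96, adjusted p = 0.0122), and Apoc2 averaged 20215 ± 4950.3 in C2 and 10117 ± 2970 in C1 (1.07, adjusted p = 0.0129). The Apoc1 call was lost in mCAT libraries alone (0.81, adjusted p = 0.127), in wt libraries alone (1.10, 0.205), without stem C1_3 (0.91, 0.0515) and without stem C2_2 (0.66, 0.115). The Apoc2 call was lost in mCAT libraries alone (0.95, adjusted p = 0.109), in wt libraries alone (1.07, 0.272), and without stem C1_5 (1.02, 0.0604), C2_2 (0.93, 0.125) or C2_4 (1.01, 0.125). In wt libraries alone Apoe had 2.07 (adjusted p = 0.116), and in mCAT libraries alone 1.63 (adjusted p = 0.0494).

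The lower one was Hsd3b7, an enzyme of bile acid synthesis that also acts on oxysterols. It averaged 3901 ± 303 in C2 and 5704 ± 878 in C1, a log2 difference of -0.53 ± 0.13 (SE, limma adjusted p = 0.0338). That call was sensitive to single libraries, with adjusted p between 0.0214 and 0.0678 when each was left out in turn. Over all 28 alternatives, which include 1 genotype alone and stems left out, the difference ran from -0.62 to -0.46 and the limma adjusted p from 0.0119 to 0.422.

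By list, 11 of 15 other macrophage targets lay above 0 in C2 against C1, with a median log2 difference of 0.38, and 10 of 15 genes of uptake, storage and lysosomal release, with a median of 0.11. In contrast, 0 of 10 tested genes of the SREBP2 axis lay above 0, with a median of -0.19 and none called. Sqle, an early enzyme of sterol synthesis, averaged 404 ± 218 in C2 and 714 ± 114 in C1 (log2 -0.77, limma adjusted p = 0.0946), and Idi1 1002 in C2 and 1456 in C1 (-0.55, adjusted p = 0.219).

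Sterol release genes stood near the threshold without passing. Lipa, the lysosomal acid lipase, averaged 23399 ± 8925 in C2 and 10568 ± 4441 in C1 (log2 1.24 ± 0.33 SE, limma adjusted p = 0.0529). Nceh1, a neutral cholesteryl ester hydrolase, averaged 4838 ± 1428 in C2 and 2775 ± 952 in C1 (0.86, adjusted p = 0.0662). Rxra, a receptor partner, averaged 754 ± 223 in C2 and 439 ± 86.0 in C1 (0.64, adjusted p = 0.0577), and the coactivator Ncoa3 2506 in C2 and 2113 in C1 (0.21, adjusted p = 0.579).

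Genes of oxysterol and desmosterol metabolism had 2 of 9 above 0 in C2, with a median log2 difference of -0.24. Dhcr7 averaged 699.6 ± 160.3 in C2 and 428 ± 157 in C1 (0.64, limma adjusted p = 0.0946). Ch25h averaged 276 ± 190 in C2 and 455 ± 316 in C1 (adjusted p = 0.524). For Ch25h the SD within each series was larger than the difference of the means.

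**Figure D5:**
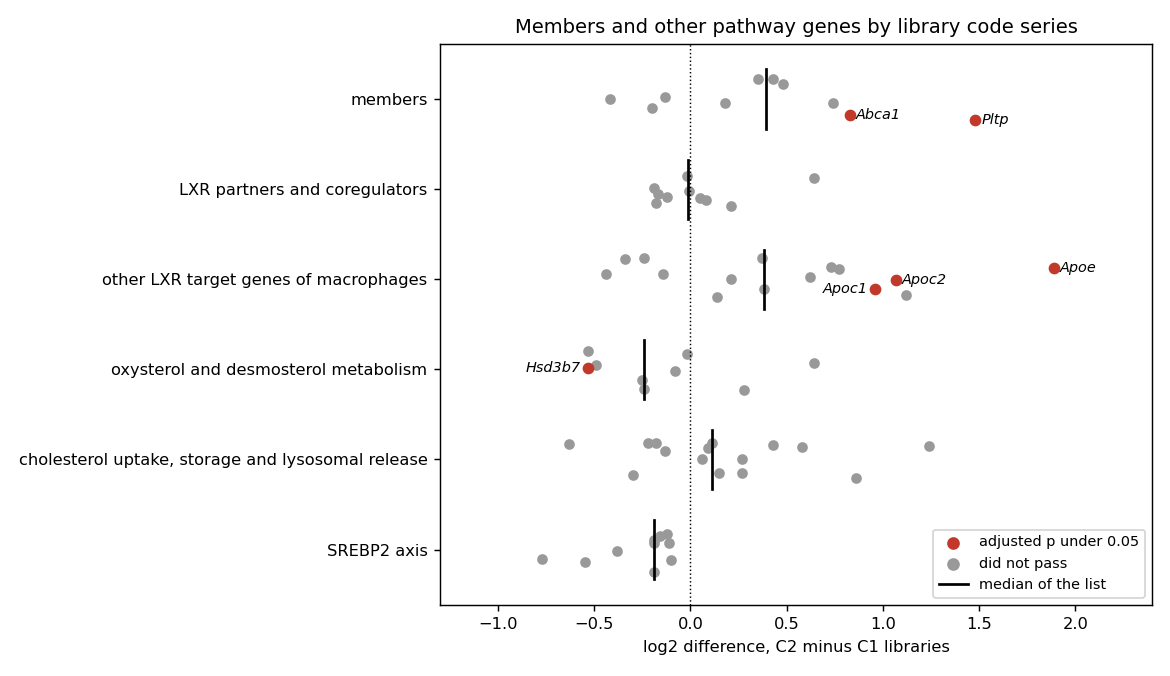
Log2 difference, C2 minus C1, of the 10 genes (top row) and of 5 lists of other pathway genes, with genes that passed an adjusted p of 0.05 in red and list medians as bars. The 10 genes, receptors included, and the other macrophage targets have medians of 0.39 and 0.38, and all tested SREBP2 axis genes lie below 0.

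Markers of several cell types moved with the code series. The 8 microglia markers summed to 8540 to 16747 normalised counts in C2 (median 14863) and 3553 to 6034 in C1 (median 5082), with no overlap. The largest part of the C2 sums was Olfml3, which averaged 8399 in C2 and 1850 in C1. All 7 tested were above 0, and Olfml3 and Gpr34 were called higher. P2ry12, a defining marker, averaged 1236 in C2 and 924 in C1 (log2 0.43, limma adjusted p = 0.198). None of the 8 was at 0 in all libraries, and Sall1 did not pass the filter. The macrophage markers summed to 1723780 to 4490040 in C2 and 860410 to 1456280 in C1. Most of these sums was Lyz2, which averaged 2598920 in C2 and 913110 in C1. By gene, 8 of 10 lay above 0 with a median of 0.31, and Lyz2 and Ms4a7 were called higher. The astrocyte marker Slc1a2 was called lower, at 340 ± 139 in C2 and 1090 ± 226 in C1 (log2 -1.45, limma adjusted p = 0.000571), although the 7 astrocyte markers had a median of -0.02. Of 5 tested neutrophil markers, 4 lay below 0 with a median of -0.68, and Cxcr2 was called lower, at 3.61 ± 3.98 in C2 and 29.4 ± 15.1 in C1 (adjusted p = 0.0261). Dendritic cell markers had 1 of 6 tested above 0 (median -0.54), endothelial markers 0 of 4 (-0.45) and T cell markers 0 of 6 (-0.15). For oligodendrocyte, neuron and B cell markers, 3 of 7, 4 of 6 and 3 of 5 lay above 0 (medians -0.19, 0.07 and 0.21). No gene of these lists was called. The part of all these markers in the differences by code was not tested.

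The genotype difference was also compared between the series. None of the 10 genes passed this interaction test in limma, as for all 12096 genes (0%). None of the 10 had an unadjusted p under 0.05, against 2.8% of all genes. The difference of log2 differences, C2 minus C1, ran from -0.24 for Abca1 to 0.39 for Scd2.

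Among themselves, few pairs of the 10 genes passed once the series were kept apart. Over the 45 pairs of genes, 9 passed a permutation test with Benjamini-Hochberg adjustment across all 14 libraries, 2 within C1 and 0 within C2. With 6 libraries, the smallest possible permutation p is too large for a lone pair among 45 to pass. The 0 within C2 therefore does not show that links were absent there. Because Abca1 did not overlap between the series and several other genes differed in level, coefficients are given within each series. Within C1 (n = 8), Mylip and Lpcat3 correlated at r = 0.916 (permutation p = 0.00186, adjusted p = 0.0419), and Srebf1 and Pltp at r = 0.891 (permutation p = 0.00117, adjusted p = 0.0419). Within C2 (n = 6) the same pairs had r = -0.582 and 0.264. Neither pair was among the 9 that passed over all 14 libraries, where r was 0.0835 and 0.0741. The strongest pair within C2 was Mylip with Pltp (r = 0.926, permutation p = 0.00278, adjusted p = 0.125), which had r = 0.673 within C1. Libraries of a stem were taken as pairs, so these samples may not be independent.

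The genes most like Abca1 over the 14 libraries, by Pearson correlation on the deposited scale, were Itgb5 (0.904), Igf2r (0.903), Ephx1 (0.901), Ctsf (0.899) and Cx3cr1 (0.883). Those most like Srebf1 were Lbr (0.884), Nfam1 (0.878), Slc16a6 (0.874), Ctnna1 (0.863) and Med24 (0.863). These coefficients pool both code series, between which Abca1 did not overlap.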

How the data were processed

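RNA of sorted monocyte-derived macrophages was sequenced from Smart-seq2 libraries, per the labels' protocols. The submitters' processing notes list the tools FastQC, fastp and Salmon with build GRCm39; for versions and annotation, nothing was given in the sources used. The deposited values are on a log2 scale with a shared lowest value of 5.96 and look like counts after a variance-stabilising transformation; undoing it gave the normalised count. Whole reads were not recovered, since only 57.2% to 78.9% of low counts came within 0.15 of whole reads, so depth is a rough estimate and covers counting error only.

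Genes were tested with limma 3.58.1 (R 4.3.3, statmod 1.5.0; trend and robust) on the deposited log2 values, 2-sided, with Benjamini-Hochberg adjustment over 12096 genes and a threshold of 0.05. Log2 differences are on the deposited scale, which compresses low genes; means, SDs and folds are of normalised counts. Stems were taken to pair libraries because partners' deviations from the genotype means correlated in all 6 cases, from 0.232 to 0.659. The labels do not state such a pairing. Partners always share a code series, whose differences stayed in these deviations, and libraries of different stems were not compared. The correlations therefore cannot show that stems are true pairs. Nothing says that libraries came from separate animals, so p-values measure the spread between these samples. The script was tested on simulated data.

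Transcript lengths and overlaps came from GENCODE M21 and sequence identity from BLAST 2.17.0. The 10 genes and the pathway and marker lists were chosen with earlier results of these data known. Other genes are named if they passed, or by the 2 smallest p-values of each list in each comparison; Apoe and Ch25h are always named, as are the 5 genes most like Abca1 and Srebf1. Alternatives changed the filter, pairing, covariate, libraries and stems. Sequences of Abcg1, Scd1 and Scd2 promoters were not analysed here. Some genes that the rule names are not reported here.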

Additional observations from a re-analysis of the deposited data

Results flagged for a closer look

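Abcg1 in the C2 libraries was flagged because mCAT 6 stood far from the others, at 14500.0 normalised counts against 10547 in the next library. Its gap took 0.679 of the range of 6 libraries, above the critical value of 0.625. It was 1 of 40 groups checked, and chance flags about 1 in 20.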

How the results depend on the processing

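For mCAT against wt, 24 genes were called, 38 with the replicate block (stem), 15 within C1 and 9 within C2, and 18 to 25 when each library was left out. No alternative called any of the 10 genes. Nr1h2 ranged from -0.08 to 0.09 and Scd1 from -0.05 to 0.11 when 1 library was left out, and Scd1 was -0.04 within C1. For C2 against C1, 328 genes were called, 903 with no replicate block, 81 in mCAT only, 15 in wt only, and 217 to 616 when each library was left out. Without each stem, an alternative chosen after seeing the data, the count was 341 (C1_1), 379 (C1_2), 196 (C1_3), 217 (C1_4), 136 (C1_5), 1186 (C2_1), 72 (C2_2) and 86 (C2_4). Lpcat3 turned to 0.03 without C2_2. Correlated pairs numbered 9, against 5 without the 2 farthest libraries, 2 within C1 and 0 within C2, where a lone pair could not have passed. The interaction gave 0 calls under every alternative run. Leaving out 1 library used the stem correlation of the full fit. The causes were not tested. Among the 10 genes and the 4 other named pathway genes, 353 of the C2 against C1 alternatives kept direction and side of the threshold, 33 lost the call, 5 gained it and 1 turned sign. Low counts and near-identical copies limit Scd1, and 3 C2 stems limit the comparison by code.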
